A study of Mus musculus with 12 samples.

Results

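RNA-Seq counts of 10 natriuretic peptide, endothelin and angiotensin genes were examined in cultured mouse cardiac fibroblasts with a floxed Smad7 gene, given a control virus or Cre. The genes were the ligands Nppa, Nppb and Edn1, the receptors Npr1, Npr2, Npr3, Ednra, Ednrb and Agtr1a, and the processing enzyme Ece1, taken by symbol from the 35275 genes of the deposited count table. They were selected on their measured RNA levels, because Npr1 was nearly absent and Ednrb was higher in Smad7-KO libraries, so their differences between Smad7-KO and control are given as a description, without a p. Of the 10 genes, 7 passed the filter on low counts with 15150 genes in all, and Nppa, Nppb and Agtr1a did not.

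The cells were isolated from hearts of 12-week-old mice with a floxed Smad7 gene, of strain C57BL/6 by the labels and C57BL/6J by the study's methods, and were used at passage 2. Unstimulated control fibroblasts and TGF-β1 control fibroblasts were infected for 48 hours, at 100 viral particles able to infect per cell, with a control adenovirus that the labels describe as GFP and the study's methods as empty. Smad7-KO fibroblasts, unstimulated or given TGF-β1, received the same dose of an adenovirus expressing Cre recombinase, which removes the floxed part of Smad7. All cells therefore carried the floxed alleles, although titles of control libraries call them wild type. TGF-β1 was given at 10 ng/ml, for 2 hours by one label and 4 hours by another. Each of these 4 conditions had 3 libraries, described as independent samples, and neither their mice nor any pooling is stated. The p values thus measure the spread between these libraries.

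Natriuretic peptides are released mainly by cardiomyocytes and act on Npr1 and Npr2, which are membrane guanylyl cyclases that make cGMP, whereas Npr3 lacks the cyclase and clears the peptides. Endothelin-1, the product of Edn1, is cut from its precursor by endothelin-converting enzymes such as Ece1 and binds the G protein-coupled receptors Ednra and Ednrb. Angiotensin II acts on Agtr1a, and in the heart angiotensin and endothelin are known to promote fibrosis whereas natriuretic peptides oppose it. Smad7 is an inhibitory Smad that restrains signaling from TGF-β receptors to Smad2 and Smad3. The short site CAGAC, the Smad box, is bound by Smad3 and Smad4.

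The promoters of Npr1, Edn1 and Ednrb are shown because these genes differed most between Smad7-KO and control libraries. RefSeq windows of the GRCm38.p6 build were found for 9 of the 10 genes, not for Agtr1a. Each sequence is the 250 bases before the RefSeq start, and capitals mark the Smad box CAGAC or its reverse complement GTCTG. The Npr1 window is chr3:90465867-90466116 on the minus strand, directly before the deposited gene. The Edn1 window is chr13:42301226-42301475 on the plus strand, and the deposited Edn1 gene already begins inside it at 42301270. The Ednrb window is chr14:103843702-103843951 on the minus strand, inside an intron of a longer annotated Ednrb transcript.
Npr1: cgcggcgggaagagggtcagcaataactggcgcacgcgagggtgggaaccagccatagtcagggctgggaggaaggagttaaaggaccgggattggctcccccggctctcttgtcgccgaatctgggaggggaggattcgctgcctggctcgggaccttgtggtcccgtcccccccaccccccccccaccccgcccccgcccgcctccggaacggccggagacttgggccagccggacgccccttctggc
Edn1: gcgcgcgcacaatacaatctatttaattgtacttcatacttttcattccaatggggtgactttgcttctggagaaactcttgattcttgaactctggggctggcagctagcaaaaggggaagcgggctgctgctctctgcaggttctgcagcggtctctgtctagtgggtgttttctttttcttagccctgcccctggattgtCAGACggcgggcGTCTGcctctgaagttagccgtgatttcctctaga
Ednrb: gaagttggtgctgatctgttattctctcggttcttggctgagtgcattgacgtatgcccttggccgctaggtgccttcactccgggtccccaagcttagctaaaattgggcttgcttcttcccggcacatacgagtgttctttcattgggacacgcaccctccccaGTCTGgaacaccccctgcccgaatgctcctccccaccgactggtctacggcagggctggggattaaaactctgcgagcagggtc
The Edn1 window held 2 Smad boxes, from 47 to 43 and from 35 to 31 bases before the start, and the Ednrb window held 1, from 84 to 80 bases before it. None was found in the Npr1 window, whose GC content was 70.4% against 50.4% for Edn1 and 56.8% for Ednrb. A Smad box on either strand occurred in 42.2% of 32536 RefSeq windows of this length. The AP-1 site TGANTCA (6.73% of windows), the TATA box TATAAA (12.3%) and the GATA site AGATAA (9.97%) were also searched on both strands, and none was in these 3 windows. No marked sites overlapped, and a match or its absence describes only these letters.

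Library totals ranged from 19056916 to 25371321 counts. CPM scale each count to its library's total after TMM scaling, and FPKM, the deposited values that are also divided by gene length, are used here to compare genes. Smad7 RNA was lower in Smad7-KO libraries but not absent, with a mean CPM without stimulation of 74.4 ± 2.94 (SD, n = 3) in control and of 29.4 ± 1.48 (SD, n = 3) in Smad7-KO libraries, and with 146 ± 4.24 and 76.8 ± 5.89 CPM (SD, n = 3) under TGF-β1. Thus 39.5% and 52.7% of control remained, and TGF-β1 Smad7-KO libraries (69.99 to 80.77 CPM) overlapped unstimulated control libraries (71.36 to 77.23 CPM). These counts cover the whole gene, not the floxed part, which the study gives as the promoter and first exon, so they do not check its removal. Unstimulated control replicate 2 stood apart: the median deviation from the mean of all libraries, on the log2 CPM scale, was -1.085 for its 5050 longest minus its 5050 shortest genes, against -0.41 to 0.374 in the other libraries.

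Defining fibroblast markers were present, with Col1a1 at 159 to 404 FPKM and Pdgfra at 7.92 to 14.2 FPKM over all libraries. Markers of another cell type were more abundant, since 11 macrophage markers summed to 11800 to 18500 FPKM per library, above the 12 fibroblast markers at 2070 to 3770 FPKM. Lyz2 alone, which encodes macrophage lysozyme, was at 6980 to 11900 FPKM. The 20 endothelial markers summed to 129 to 173 FPKM in control and 127 to 145 FPKM in TGF-β1 control libraries, against 86.1 to 99.3 FPKM in Smad7-KO and 43.5 to 54.5 FPKM in TGF-β1 Smad7-KO libraries. Of the 20 listed, 1 that did not pass the filter on low counts was at 0 in all 3 TGF-β1 Smad7-KO libraries. Among 18 endothelial markers tested, 13 were lower and 1 was higher in each Smad7-KO comparison. Over all genes tested, 13.7% were lower and 12.1% higher without TGF-β1, and 7.23% and 5.72% with it. With TGF-β1, 1 marker rose and 2 fell in control cells, against 5.04% and 3.33% of all genes. In Smad7-KO cells 2 rose and 2 fell, against 5.33% and 4.9%. Fabp4 was 1 of the 2 that fell in each genotype. Its mean CPM went from 29.5 to 14.4 in control cells and from 48.8 to 21.6 where Smad7 was deleted. Its mean was thus higher in Smad7-KO, against most of the list, but neither difference passed (adjusted p = 0.0646 without and 0.185 with TGF-β1 in edgeR). The part of Fabp4 in the sums was not tested. The defining markers Pecam1, Cdh5, Kdr, Tie1 and Vwf did not pass the test for TGF-β1 in either genotype. In Smad7-KO cells, where the sum was lower with TGF-β1, mean CPM went from 2.53 to 3.64 for Pecam1 and from 3.06 to 3.88 for Cdh5. It went from 0.632 to 0.729 for Tie1, from 2.01 to 1.91 for Kdr and from 30.4 to 25.8 for Vwf. Of the defining endothelial markers, Pecam1 was at 12.7 to 20.5 FPKM in all control libraries and at 0.603 to 1.28 FPKM in all Smad7-KO libraries, whereas Vwf was higher in Smad7-KO (1.22 to 2.18 against 2.69 to 3.86 FPKM).

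**Figure D1:**
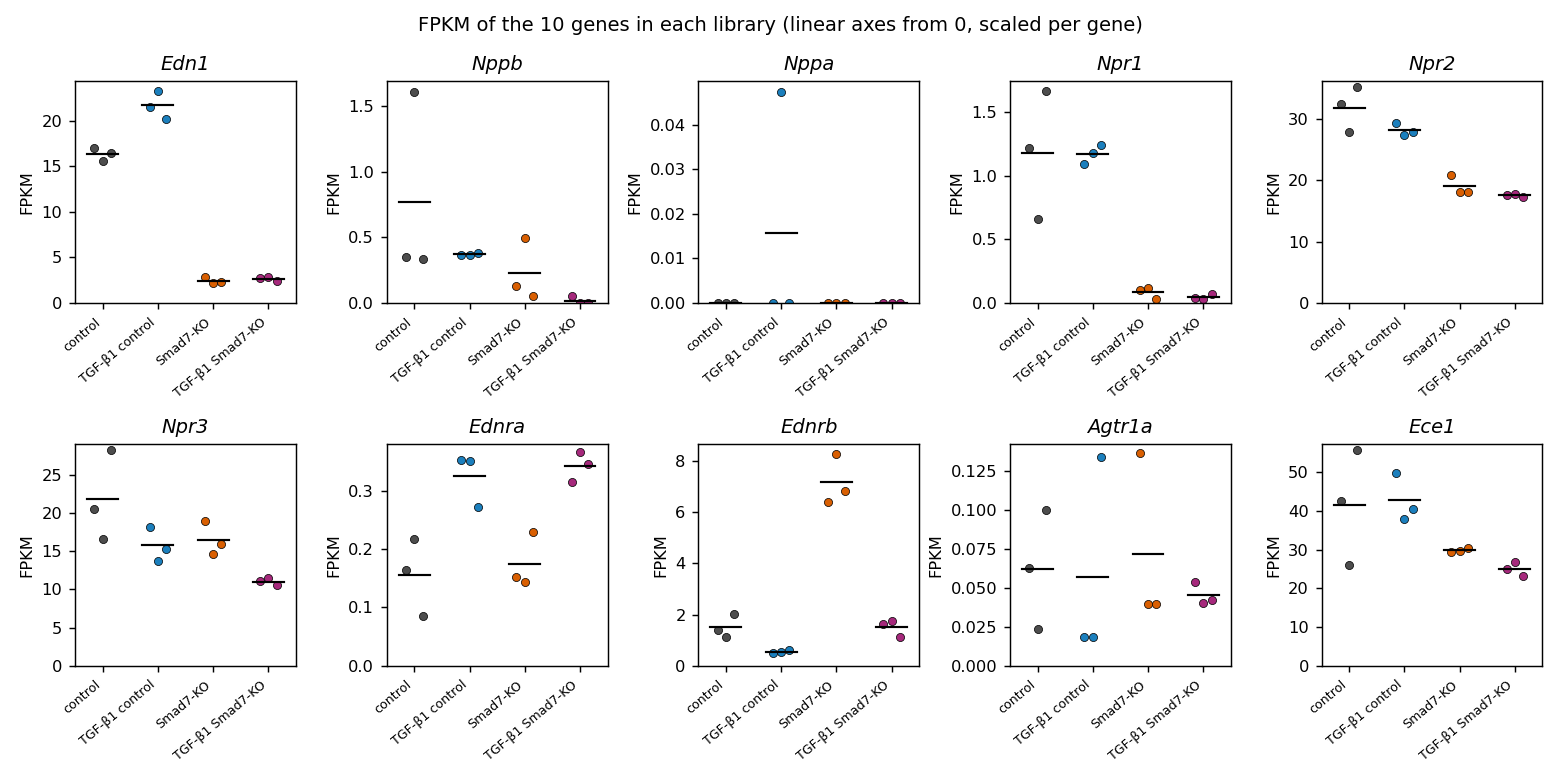
FPKM of each of the 10 genes (vertical axes, linear from 0 and scaled per gene) in the 3 libraries of each condition (points, left to right replicates 1 to 3), with the mean of the condition as a line. Npr1 and Edn1 lay near the bottom of their axes in all Smad7-KO libraries, Ednrb was highest in the unstimulated Smad7-KO libraries, and Nppa was at 0 in 11 of 12 libraries.

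Ednrb and Edn1 stood in opposite orders in unstimulated control and Smad7-KO libraries. In unstimulated control libraries mean FPKM ran from Ece1 (41.4) through Npr2 (31.9), Npr3 (21.8) and Edn1 (16.4) to Ednrb (1.52), Npr1 (1.18), Nppb (0.767), Ednra (0.155), Agtr1a (0.0621) and Nppa (0). Neighbours from Ece1 to Edn1, from Ednrb to Nppb, and Ednra with Agtr1a overlapped when values were compared across different libraries. Within each single control library, Npr2 was above Npr3, Npr3 above Edn1 and Ednrb above Npr1. The order of Ece1 and Npr2, of Npr1 and Nppb, and of Ednra and Agtr1a was not the same in every control library. In unstimulated Smad7-KO libraries Ednrb (7.17 FPKM) stood in place 4 above Edn1 (2.45 FPKM), and the libraries of the pair did not overlap. Npr1 there stood in place 8 at 0.0826 FPKM, overlapping Agtr1a at 0.0719 FPKM. Under TGF-β1 Edn1 was again above Ednrb, at 21.7 against 0.549 FPKM in control and at 2.66 against 1.5 FPKM in Smad7-KO libraries. The orders use unfitted FPKM, and only libraries of the same condition were set side by side.

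Of the ligands, Edn1 was the only one at more than trace level. Edn1 (ENSMUSG00000021367, chromosome 13, 42301270 to 42307989, plus strand) had 871, 696 and 880 counts in unstimulated control and 1227, 1333 and 965 counts in TGF-β1 control libraries. It had 134, 119 and 122 counts in Smad7-KO, and 162, 151 and 122 counts in Smad7-KO libraries with TGF-β1. All 6 Smad7-KO libraries were below all 6 control libraries. The mean was 38.6 ± 1.37 CPM (SD, n = 3) in control and 5.68 ± 0.836 CPM (SD, n = 3) in Smad7-KO libraries, which is 14.7% of control, with a log2 fold change of -2.77 (standard error 0.129). Under TGF-β1 the means were 50.2 ± 3.71 and 6.35 ± 0.547 CPM (SD, n = 3), or 12.6% of control, with a log2 fold change of -2.98 (standard error 0.129). In bulk libraries such as these, fewer cells of a type and less RNA per cell cannot be told apart, and the part of the lower endothelial markers in the Edn1 difference was not tested. No other gene overlaps Edn1 in the deposited annotation.

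TGF-β1 was followed by Edn1 values that did not overlap in control cells, but the difference did not pass the test. All 3 TGF-β1 control libraries (46.9 to 54.2 CPM) were above the 3 unstimulated control libraries (37.1 to 39.8 CPM), a difference of 0.38 on the log2 scale (standard error 0.117). The quasi-likelihood test of edgeR, adjusted by Benjamini-Hochberg over all genes, gave an adjusted p of 0.0734. Without the length-shifted control replicate 2 the log2 fold change was 0.40 with an adjusted p of 0.0448, and over 19 alternatives the adjusted p ranged from 0.0237 to 0.266. In Smad7-KO cells the libraries overlapped, with a log2 fold change of 0.16 (95% interval -0.088 to 0.415, adjusted p = 0.599 in edgeR).

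The cardiac natriuretic peptides were close to absent. Nppb, which encodes B-type natriuretic peptide, had 6, 24 and 6 counts in control, 7, 7 and 6 in TGF-β1 control, 2, 9 and 1 in Smad7-KO, and 1, 0 and 0 in Smad7-KO libraries with TGF-β1. Its values in unstimulated control and Smad7-KO libraries overlapped, whereas the TGF-β1 Smad7-KO libraries were below the TGF-β1 control libraries. Its highest value, 1.37 CPM, was in control replicate 2. Nppa, which encodes atrial natriuretic peptide, had 1 count in TGF-β1 control replicate 2 and 0 in the other 11 libraries, where a count of 0 allows up to 0.12 to 0.171 CPM (3 counts per library, counting error only). Of the markers of cardiomyocytes, the main source of both peptides in the heart, Myh6 was at 0 to 0.142 FPKM, whereas Tnnt2 was at 4.41 to 19.3 FPKM and Tnni3 at 2.03 to 6.62 FPKM. The sum of the 11 cardiomyocyte markers was also highest in control replicate 2, at 27.2 FPKM against 7.75 to 15.8 FPKM in the other libraries, and its part in the Nppb value was not tested. Neither peptide gene was tested. They lie on chromosome 4, plus strand, Nppb from 147985788 to 147987205 and Nppa from 148000722 to 148002079.

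Npr1, the receptor for atrial and B-type natriuretic peptide, was the natriuretic peptide receptor with the largest difference between Smad7-KO and control. Npr1 (ENSMUSG00000027931, chromosome 3, 90450591 to 90465866, minus strand) had 108, 51 and 154 counts in control and 108, 117 and 103 counts in TGF-β1 control libraries. It had 8, 11 and 3 counts in Smad7-KO, and 4, 3 and 6 counts in Smad7-KO libraries with TGF-β1. The highest Smad7-KO library was thus below the lowest control library, both with and without TGF-β1. Means were 4.75 ± 1.79 against 0.333 ± 0.180 CPM (SD, n = 3) without stimulation, or 7.01% of control, with a log2 fold change of -3.83 (standard error 0.408). With TGF-β1 they were 4.71 ± 0.322 against 0.193 ± 0.0791 CPM (SD, n = 3), or 4.09% of control, with a log2 fold change of -4.59 (standard error 0.442). Without control replicate 2 the unstimulated log2 fold change was -4.08. Counts of 3 to 11 leave the level in Smad7-KO cells imprecise. The opposite-strand gene Gm16048 that overlaps Npr1 had 0 to 3 counts, and whether counting used strand is not stated.

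TGF-β1 had no detectable effect on Npr1 at this depth. In control cells the log2 fold change was -0.02 (95% interval -0.634 to 0.592, adjusted p = 0.979 in edgeR), and control and TGF-β1 control libraries overlapped. In Smad7-KO cells it was -0.78 (95% interval -1.916 to 0.357, adjusted p = 0.554 in edgeR) on a total of 22 against 13 counts.

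The lower Npr1 went together with lower endothelial markers, and that part was not tested. Among the 12203 genes of average log2 CPM 1 or more, those nearest to Npr1 over the 12 libraries were Mest, Esam, Cdh5, Gpr116 and Tie1, of which Esam, Cdh5 and Tie1 are in the endothelial list. Their root mean square differences from Npr1 in centred log2 CPM were 0.452, 0.598, 0.598, 0.603 and 0.609, against a median of 1.99 over all genes. These distances include the genotype difference for which Npr1 was chosen, so genes with a similar difference lie near it in any case. They are a description and test no link. The genes nearest to Edn1 were Aqp1, Bst1, Clu, Vit and Gm3608, at 0.268 to 0.37 against a median of 1.47, and none of these is in the endothelial list. That list holds only 20 genes, so absence from it does not show which cells express a gene. Mean CPM of Cdh5, which encodes VE-cadherin, was 34.3 in control and 3.06 in Smad7-KO libraries, and that of the water channel gene Aqp1 was 21.6 and 4.09.

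**Figure D2:**
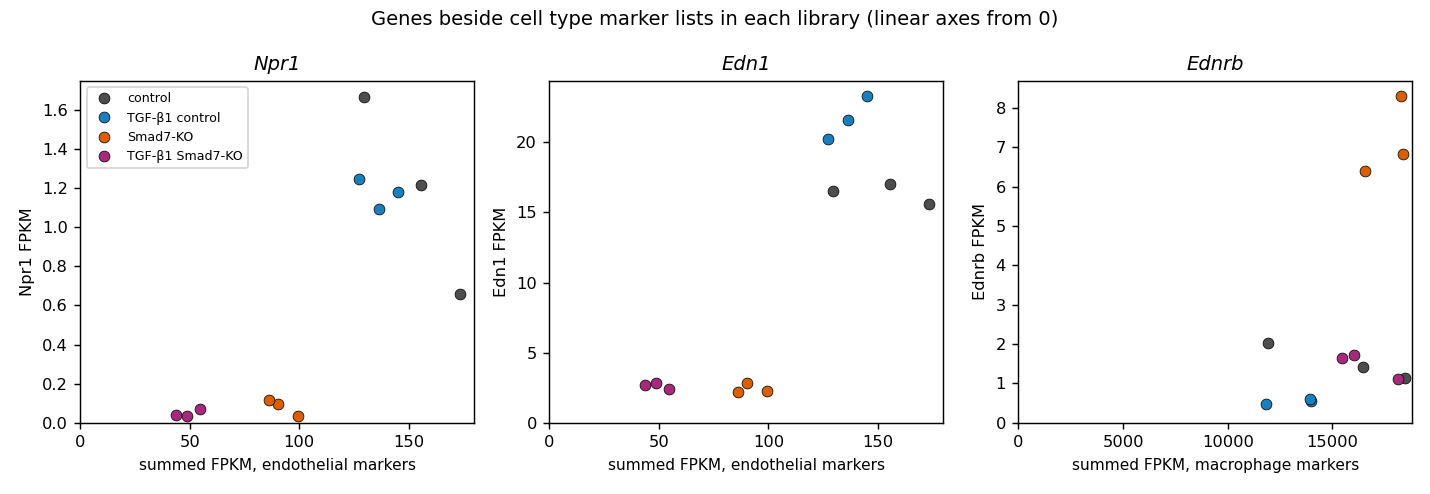
Npr1 and Edn1 FPKM against the summed FPKM of 20 endothelial markers, and Ednrb FPKM against the summed FPKM of 11 macrophage markers (linear axes from 0, 1 point per library, colour for the condition). All Smad7-KO points lay at 43.5 to 99.3 summed endothelial FPKM with low Npr1 and Edn1. That sum includes Fabp4, whose mean CPM was higher in Smad7-KO than in control libraries of the same stimulation, without passing the test. Macrophage sums were 11900 to 18500 FPKM in control, 11800 to 14000 in TGF-β1 control, 16500 to 18400 in Smad7-KO and 15400 to 18100 in TGF-β1 Smad7-KO libraries. The part of either cell type in these genes was not tested.

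Npr2, the receptor for C-type natriuretic peptide, had the highest FPKM of the natriuretic peptide receptors. It lies on chromosome 4 from 43631935 to 43651244 on the plus strand. Its counts were 2597, 1940 and 2939 in control, 2611, 2446 and 2076 in TGF-β1 control, 1525, 1535 and 1516 in Smad7-KO, and 1636, 1466 and 1365 in Smad7-KO libraries with TGF-β1. In CPM the highest Smad7-KO library was below the lowest control library, at 69.1 ± 5.62 against 117 ± 6.59 CPM (SD, n = 3) without and 65.3 ± 0.964 against 102 ± 3.19 CPM (SD, n = 3) with TGF-β1. The log2 fold changes were -0.76 (standard error 0.0916) and -0.64 (standard error 0.0915). The response to TGF-β1 did not pass the test, with log2 fold changes of -0.20 in control (adjusted p = 0.246 in edgeR) and -0.08 in Smad7-KO cells (adjusted p = 0.769 in edgeR). The antisense gene Gm12473, with 12 to 199 counts, overlaps Npr2, so some reads cannot be assigned to either gene with certainty.

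Npr3, the clearance receptor, was lower under TGF-β1 in both genotypes without passing the test. It lies on chromosome 15 from 11839896 to 11905674 on the minus strand. In CPM the 3 control libraries were at 140, 125 and 188, those of TGF-β1 control at 124, 94.3 and 105, those of Smad7-KO at 130, 100.3 and 109.8, and those of TGF-β1 Smad7-KO at 77.7, 81.0 and 74.5. Every TGF-β1 library was below every unstimulated library of its genotype. The log2 fold changes with TGF-β1 were -0.49 in control (standard error 0.16, adjusted p = 0.0946 in edgeR) and -0.54 in Smad7-KO cells (standard error 0.16, adjusted p = 0.0539 in edgeR). Without control replicate 2 the adjusted p in control cells was 0.02, that in Smad7-KO cells was 0.0175, and over 19 alternatives each it ranged from 0.000389 to 0.347 and from 0.00025 to 0.222. Between genotypes the log2 fold changes were -0.41 without and -0.47 with TGF-β1. With each library's length trend removed they were -0.80 and -0.64.

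In summed FPKM of the natriuretic receptors, Npr1 took 2.08% in control, 2.61% in TGF-β1 control, 0.233% in Smad7-KO, and 0.164% in Smad7-KO libraries with TGF-β1. Npr2 took 58.6%, 62.6%, 53.5% and 61.3% in the same order, and Npr3 the remainder, 39.4%, 34.8%, 46.3% and 38.5%. With TGF-β1 the Npr2 share was 7.79 percentage points higher in Smad7-KO cells, where the libraries did not overlap (exact permutation, two-sided, p = 0.1, below which 3 against 3 cannot go). The difference was 4.04 points in control cells, where they overlapped (two-sided exact permutation test, p = 0.2). For Npr3 the differences were -7.72 points (exact p = 0.1) and -4.57 points (exact p = 0.2), and for Npr1 -0.0686 (exact p = 0.6) and 0.527 points (exact p = 0.2). Adjustment of these p values over the shares cannot bring any below 0.05, since none could reach it.

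Ednrb fell with TGF-β1 in both genotypes, the only one of the 7 tested genes to pass in edgeR on all libraries, whereas Edn1, Npr2, Npr3, Ednra or Ece1 also passed under some alternatives. Of the 2 endothelin receptors, Ednrb (ENSMUSG00000022122, chromosome 14, 103814625 to 103844173, minus strand) had 123, 86 and 183 counts in control and 47, 53 and 50 counts in TGF-β1 control libraries. It had 509, 765 and 623 counts in Smad7-KO, and 167, 156 and 96 counts in Smad7-KO libraries with TGF-β1. The unstimulated Smad7-KO libraries were the highest 3 of the 12 and the TGF-β1 control libraries the lowest 3. With TGF-β1 the mean went from 6.05 ± 1.48 to 2.16 ± 0.265 CPM (SD, n = 3) in control cells, -1.49 on the log2 scale (standard error 0.228, edgeR adjusted p = 0.00138). In Smad7-KO cells it went from 28.4 ± 3.98 to 6.08 ± 1.36 CPM (SD, n = 3), -2.22 on the log2 scale (standard error 0.211, edgeR adjusted p = 4.24e-05). The high unstimulated Smad7-KO values are among those for which Ednrb was chosen. The choice could thus enlarge this fall, and its p is not independent of the choice. Over 19 alternatives in each genotype the adjusted p ranged from 1.29e-07 to 0.0284 and from 2.24e-20 to 0.000441.

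The fall of Ednrb was not shown to differ between genotypes, and the test of this also includes the unstimulated libraries that entered the choice of Ednrb. The interaction was -0.73 on the log2 scale (standard error 0.305), with an unadjusted p of 0.0358 and an adjusted p of 0.98 in edgeR (0.25 to 1.0 over 18 alternatives). None of the 7 genes passed this test in edgeR or DESeq2, and none of those with a value in limma, where Ednra had none. In edgeR 3 of 15150 genes (0.0198%) passed. At an unadjusted p of 0.05 or less there was 1 of the 7, Ednrb, and 392 of all genes (2.59%).

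Between genotypes Ednrb was higher in every Smad7-KO library than in every control library of the same stimulation. The log2 fold change was 2.22 (standard error 0.211) without TGF-β1, or 469% of control, and 1.496 (standard error 0.227) with it, or 281%. TGF-β1 Smad7-KO libraries (4.53 to 7.06 CPM) overlapped unstimulated control libraries (4.91 to 7.72 CPM). Leaving out control replicate 2 gave 2.09 and 1.51. Of 11 macrophage markers tested, 6 were higher in Smad7-KO without and 5 with TGF-β1, none was lower, and only Cd163 changed with TGF-β1, with log2 fold changes of -2.38 in control and -2.27 in Smad7-KO cells (edgeR, adjusted p = 0.00303 and 0.00236). The part of macrophages in the Ednrb difference was not tested. Sox10, a marker of the neural crest cells known for Ednrb, was at 0 to 0.114 FPKM.

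The genes nearest to Ednrb over the 12 libraries were Pgap1, Cd28, Rassf4, St8sia4 and Gm8995, at root mean square differences of 0.333 to 0.479 against a median of 1.36 over 12203 genes. These distances include the genotype difference for which Ednrb was chosen and are a description only. As for Ednrb, the mean of Rassf4 was highest in Smad7-KO and lowest in TGF-β1 control libraries, with 163, 53.3, 367 and 107 CPM in control, TGF-β1 control, Smad7-KO and TGF-β1 Smad7-KO libraries. Pgap1, which encodes an enzyme that remodels GPI anchors, was at 41.1, 14.5, 127 and 28.2 CPM in that order.

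Ednra, the receptor that contracts vascular smooth muscle, was near the limit of detection. It lies on chromosome 8 from 77663031 to 77724464 on the minus strand. It had 13, 15 and 7 counts in control, 31, 31 and 20 in TGF-β1 control, 11, 12 and 19 in Smad7-KO, and 29, 30 and 27 in Smad7-KO libraries with TGF-β1. In CPM all TGF-β1 libraries were above all unstimulated libraries, while the genotypes overlapped. The log2 fold change with TGF-β1 was 1.04 in control (standard error 0.369, adjusted p = 0.122 in edgeR) and 1.00 in Smad7-KO cells (standard error 0.36, adjusted p = 0.119 in edgeR), so neither passed the test. Without control replicate 2 the adjusted p was 0.0328 and 0.0478, and over 18 alternatives each it ranged from 0.0328 to 0.377 and from 0.0424 to 0.337.

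The share of Ednrb in the endothelin receptors was lower with TGF-β1 in both genotypes. Ednrb took 89.6%, 83.9% and 96.0% of the summed FPKM of both receptors in control libraries and 57.9%, 60.8% and 69.4% in TGF-β1 control libraries. It took 97.7%, 98.3% and 96.8% in Smad7-KO, and 84.0%, 82.5% and 76.4% in Smad7-KO libraries with TGF-β1. No TGF-β1 library reached an unstimulated library of its genotype. The mean shares were 89.8 ± 6.04%, 62.7 ± 5.98%, 97.6 ± 0.78% and 81.0 ± 4.04% (SD, n = 3), and the differences with TGF-β1 were -27.1 and -16.6 points (two-sided exact permutation test, p = 0.1 each, the smallest possible).

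**Figure D3:**
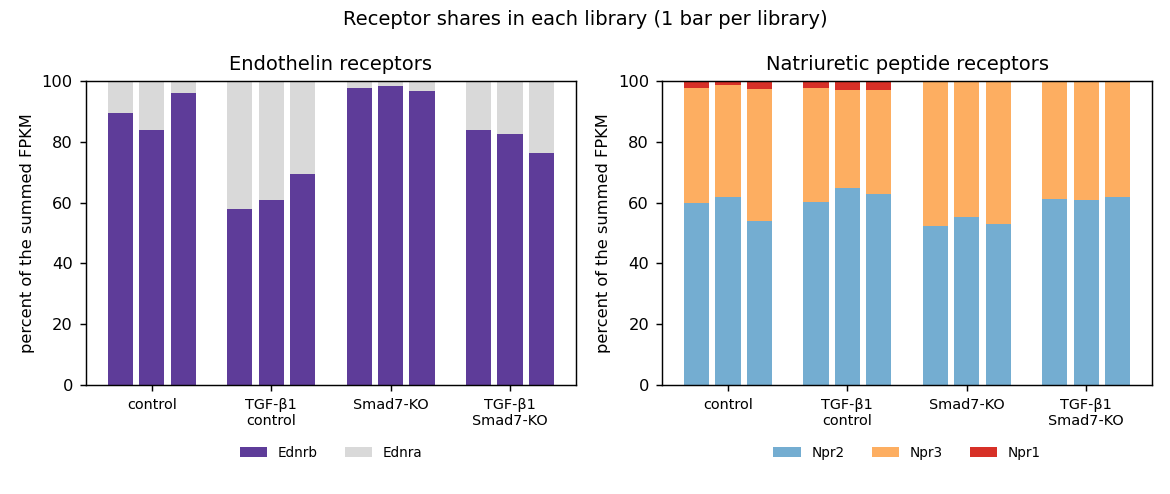
Share of each endothelin receptor (left) and each natriuretic peptide receptor (right) in their summed FPKM (vertical axes, percent from 0 to 100), with 1 bar per library in 4 conditions. Ednrb took 57.9 to 69.4% in TGF-β1 control and 96.8 to 98.3% in Smad7-KO libraries, and the Npr1 segment was at most 0.356% in Smad7-KO libraries.

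Agtr1a, the type 1 angiotensin receptor, was detected at 1 to 6 counts per library. It lies on chromosome 13 from 30336441 to 30382867 on the plus strand. Its counts were 3, 1 and 5 in control, 1, 1 and 6 in TGF-β1 control, 6, 2 and 2 in Smad7-KO, and 3, 2 and 2 in Smad7-KO libraries with TGF-β1. All conditions overlapped, and no difference was detectable at this depth.

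Ece1, the enzyme that cuts the endothelin-1 precursor, had the highest mean FPKM of the 10 genes in all 4 conditions, overlapping Npr2 in unstimulated control libraries. It lies on chromosome 4 from 137862237 to 137965229 on the plus strand. In CPM the control libraries were at 200.3, 137.0 and 257, those of TGF-β1 control at 236, 181 and 192, those of Smad7-KO at 140.5, 141 and 145, and those of TGF-β1 Smad7-KO at 121, 131 and 113. Control libraries spread widely, with the length-shifted replicate 2 lowest, and overlapped the Smad7-KO libraries, whereas under TGF-β1 all Smad7-KO libraries were lower. The log2 fold changes between genotypes were -0.48 (standard error 0.188) without and -0.73 (standard error 0.189) with TGF-β1, and -0.69 and -0.72 without control replicate 2. The response to TGF-β1 did not pass the test, with 0.03 in control (adjusted p = 0.944 in edgeR) and -0.22 in Smad7-KO cells (adjusted p = 0.642 in edgeR). An overlapping antisense gene, Gm13012, had 0 to 18 counts.

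Counted together, 1 of the 7 tested genes changed with TGF-β1 in each genotype. In control cells 1 of 7, Ednrb, passed the test against 8.37% of all genes tested (5.04% higher, 3.33% lower), and the median log2 fold change was -0.02 against -0.03 over all genes. In Smad7-KO cells 1 of 7, again Ednrb, passed against 10.2% (5.33% higher, 4.9% lower), with medians of -0.22 and -0.01. Libraries with and without TGF-β1 did not overlap for 5 of 7 genes in control (19.8% of all genes) and for 4 of 7 in Smad7-KO cells (39.0%). Without control replicate 2, 4 genes passed in control cells (Edn1, Ednra, Ednrb and Npr3) and 3 in Smad7-KO cells (Ednra, Ednrb and Npr3), and without control replicate 3, Ednrb and Npr3 passed in Smad7-KO cells. The comparisons that the choice of genes used gave 4 of 7 without TGF-β1 (Ednrb higher, Edn1, Npr1 and Npr2 lower), against 25.8% of all genes (12.1% higher, 13.7% lower), and 5 of 7 with it (Ece1 lower in addition), against 13.0% (5.72% higher, 7.23% lower). Libraries of these comparisons did not overlap for 4 of 7 genes (41.3% of all genes) and 6 of 7 (44.9%). Nothing is read from these counts, since the same contrasts chose the genes.

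**Figure D4:**
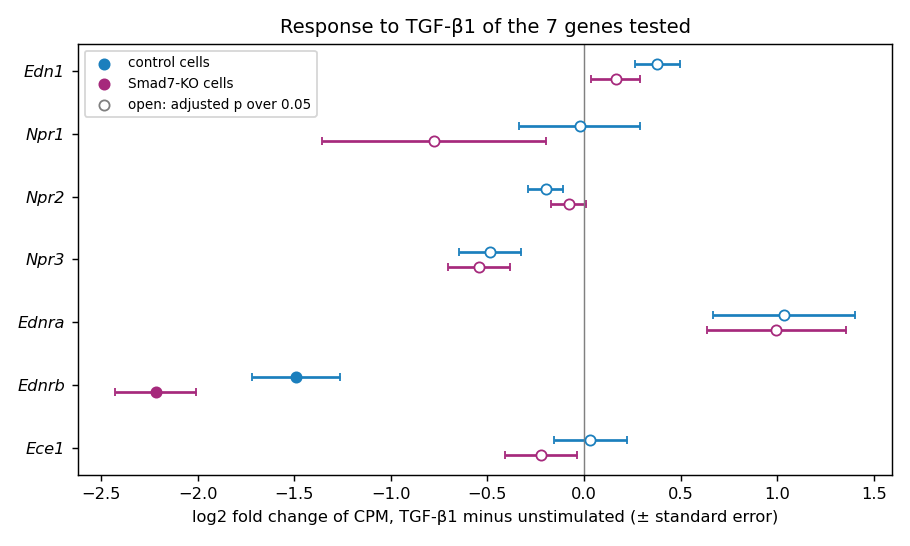
Log2 fold change of CPM with TGF-β1 against no stimulation (horizontal axis, points with standard errors) for the 7 genes tested in control and Smad7-KO cells. Filled points passed edgeR's threshold of 0.05 on the adjusted p, and only Ednrb has them, at -1.49 in control and -2.22 in Smad7-KO cells.

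Other genes of these pathways were tested over all genes. Of 70 listed genes 58 passed the filter on low counts, and 21 of them differed between Smad7-KO and control without TGF-β1 (13 higher, 8 lower, against 25.8% of all genes tested) and 14 with it (7 higher, 7 lower, against 13.0%). With TGF-β1, 9 changed in control (7 higher, 2 lower, against 8.37% of all genes) and 12 in Smad7-KO cells (6 higher, 6 lower, against 10.2%), and none passed the interaction test in edgeR, with 4 at an unadjusted p of 0.05 or less and none in DESeq2 or limma. Among those not tested, the other endothelin genes Edn2 and Edn3 and the C-type natriuretic peptide gene Nppc had at most 4, 2 and 2 counts in any library. The counts of the lists that follow are read against the same shares of all genes. For the medians of the lists, those of all genes tested were -0.02 in both Smad7-KO comparisons and, with TGF-β1, -0.03 in control and -0.01 in Smad7-KO cells.

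In the natriuretic peptide and cGMP list, 5 of 17 genes tested differed in Smad7-KO cells (4 higher, 1 lower) and 2 with TGF-β1 (1 higher, 1 lower), with medians of 0.36 and 0.24 on the log2 scale. Gucy1a3, a subunit of soluble guanylyl cyclase, was 4.63 ± 0.891 CPM in control and 13.6 ± 2.05 CPM (SD, n = 3) in Smad7-KO libraries (log2 fold change 1.55, adjusted p = 0.00165 in edgeR), and TGF-β1 lowered it to 5.75 ± 1.08 CPM in Smad7-KO cells (-1.24, adjusted p = 0.00518 in edgeR). Pde3b, a phosphodiesterase that cGMP inhibits, rose with TGF-β1 in control (log2 fold change 1.505, adjusted p = 4.03e-05 in edgeR) and Smad7-KO cells (1.40, adjusted p = 4.56e-05 in edgeR) and was higher in Smad7-KO cells both without (0.72) and with TGF-β1 (0.62). The cGMP-stimulated phosphodiesterase gene Pde2a also rose with TGF-β1 in both genotypes (0.89 and 1.06) and was lower in unstimulated Smad7-KO cells (-0.67, adjusted p = 0.0182 in edgeR). Furin, which encodes a protease that cuts propeptides including those of natriuretic peptides, rose with TGF-β1 by 1.07 in control cells and by 0.885 in Smad7-KO cells. It was higher in Smad7-KO cells without stimulation (0.66, adjusted p = 0.0396 in edgeR). Pde3a fell with TGF-β1 in Smad7-KO cells (-1.18), and Pcsk6, a related convertase, was lower in TGF-β1 Smad7-KO cells (-0.54). Over the list, 3 of 17 genes rose with TGF-β1 in control cells, and 3 rose and 2 fell in Smad7-KO cells, with medians of 0.02 and -0.09.

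In the endothelin list, both genes tested encode relatives of Ece1 and both were lower in Smad7-KO cells. Ece2 was at 23.4 ± 2.21 CPM in control and 15.4 ± 1.31 CPM (SD, n = 3) in Smad7-KO libraries (log2 fold change -0.61, adjusted p = 0.0054 in edgeR) and differed by -0.55 under TGF-β1 (adjusted p = 0.011 in edgeR). Ecel1 was at 0.995 ± 0.535 and 0.286 ± 0.0223 CPM (-1.75, adjusted p = 0.0197 in edgeR), and differed by -2.315 under TGF-β1. Neither passed the test for TGF-β1 in either genotype.

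In the renin and angiotensin list, 6 of 16 genes tested differed in Smad7-KO cells (5 higher, 1 lower) and 3, all higher, under TGF-β1, with medians of 0.04 and 0.16. Anpep, an aminopeptidase that shortens angiotensin III and that myeloid cells also express, was at 184 ± 16.3 CPM in control and 434 ± 17.8 CPM (SD, n = 3) in Smad7-KO libraries (log2 fold change 1.24, adjusted p = 7.24e-05 in edgeR). With TGF-β1 Anpep fell by 0.64 on the log2 scale in control and by 0.75 in Smad7-KO cells. Agt, the angiotensin precursor, was lower in Smad7-KO cells (9.76 ± 3.38 against 4.61 ± 0.806 CPM, -1.07, adjusted p = 0.00778 in edgeR). Nr3c2, the mineralocorticoid receptor, fell with TGF-β1 in control (4.83 ± 0.809 to 1.69 ± 0.559 CPM, -1.52, adjusted p = 0.00298 in edgeR) and Smad7-KO cells (-1.01, adjusted p = 0.0267 in edgeR). Arap1, which encodes a GTPase-activating protein, was higher in Smad7-KO cells without (0.43) and with TGF-β1 (0.38), and the peptidase genes Nln (0.43, without) and Rnpep (0.53, with TGF-β1) were also higher. The peptidase gene Prcp fell with TGF-β1 in Smad7-KO cells (-0.36). Over the list 2 genes fell with TGF-β1 in control and 4 in Smad7-KO cells, none rose, and the medians were -0.07 and -0.19.

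In the list of Gq and G12 signaling and receptor desensitization, 8 of 23 genes tested differed in Smad7-KO cells (4 higher, 4 lower) and 7 under TGF-β1 (3 higher, 4 lower), each with a median of 0.06. Rgs4, which limits signaling through Gq, was lower in Smad7-KO cells without (6.37 ± 1.05 against 1.88 ± 0.365 CPM, log2 fold change -1.765, adjusted p = 0.000115 in edgeR) and with TGF-β1 (-1.16, adjusted p = 0.00085 in edgeR). TGF-β1 raised it in control (2.06, adjusted p = 1.33e-05 in edgeR) and Smad7-KO cells (2.67, adjusted p = 2.81e-06 in edgeR). Rgs2, of the same family, rose with TGF-β1 in both genotypes (0.86 and 1.13), and Rgs3 was lower in Smad7-KO cells (-0.48 without and -0.595 with TGF-β1). The phospholipase gene Plcb2 was higher in Smad7-KO cells (0.97 and 1.08), as were the G protein gene Gna13 (0.66 and 0.60) in both comparisons, Adrbk2 (1.15) and the arrestin gene Arrb1 (0.85) without TGF-β1, and Adrbk1 (0.34) with it. Rcan1, which encodes an inhibitor of calcineurin, was lower (-0.40 without TGF-β1), as was the receptor kinase gene Grk5 (-0.46 with it). TGF-β1 raised Prkca in control cells (0.75) and Gna12 in Smad7-KO cells (0.40). Over the list 4 genes rose in control and 3 in Smad7-KO cells, none fell, and the medians were 0.18 and 0.13.

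**Figure D5:**
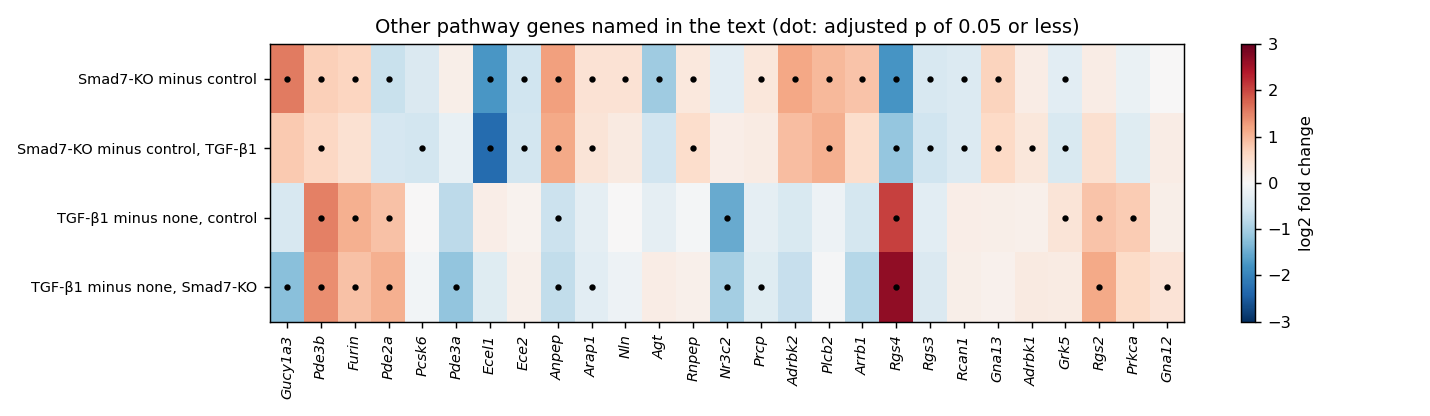
Log2 fold changes (colour, from -3 in blue to 3 in red) of the pathway genes named in the text in 4 comparisons, with dots where edgeR's adjusted p reached 0.05 or below. Rgs4 was lower in Smad7-KO cells (-1.765 and -1.16) and higher with TGF-β1 (2.06 and 2.67), and Ecel1 and Ece2 were lower in both Smad7-KO comparisons.

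Markers of other cell types gave these values, and their counts are read against the shares of all genes given above. Of 12 fibroblast markers, 5 differed without TGF-β1 (2 higher, 3 lower) and 4 with it (2 higher, 2 lower), and TGF-β1 changed none in control and 1, which rose, in Smad7-KO cells. Of the defining markers, Tcf21 was lower in Smad7-KO, at 91.6 to 134 FPKM in all control and 45.9 to 61.6 FPKM in all Smad7-KO libraries. Dcn was higher, at 281 to 299 FPKM in all control and 348 to 392 FPKM in all Smad7-KO libraries. Pdgfra, Col1a1 and Ddr2 did not pass the test in either comparison between genotypes. Cardiomyocyte markers summed to 12.8 to 27.2 FPKM in all control and 7.75 to 11.6 FPKM in all Smad7-KO libraries, and 2 of 6 tested, Tnnt2 and Tnni3, were lower without TGF-β1, although the median log2 fold change of the 6 was 1.23. None passed in the other comparisons. Mural markers summed to 7.14 to 11.8 FPKM over all libraries, with 2 of 6 lower in Smad7-KO without and 1 with TGF-β1, and 1 that rose with TGF-β1 in each genotype. Glia and melanocyte markers summed to 11.7 to 14.2 FPKM, with 1 of 5 higher and 1 lower in Smad7-KO without TGF-β1, 1 lower with it, and none that changed with TGF-β1. Epicardial and mesothelial markers summed to 145 to 175 FPKM in all control and 93.7 to 126 FPKM in all Smad7-KO libraries, and 4 of 7 tested were lower without and 2 with TGF-β1, and 1 fell with TGF-β1 in each genotype. Their part in the differences of the endothelin and natriuretic peptide genes was not tested.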

How the data were processed

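RNA-Seq of poly-A RNA was analysed in 12 libraries (4 conditions of 3) of mouse cardiac fibroblasts, prepared with a NEBNext Ultra RNA kit. The authors deposited raw gene counts (whole numbers) and FPKM, which equal counts over gene length and library total (largest difference 4.94e-08). Per the submitters' processing notes, CASAVA, TopHat2 2.0, Cufflinks 2.1.1, HTSeq 0.6.1 and the builds mm10 and GRCm38.p6 were named without a role, and the counting strand is not given in the sources used here. Of 35275 gene identifiers, 34490 were found in GENCODE M21 (GRCm38), 99.84% of these overlapping. The number of per-sample columns left out was 0.

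Counts were fitted with edgeR 4.0.16 in R 4.3.3 (filterByExpr with a minimum count of 10, TMM, robust quasi-likelihood, all 12 libraries), with Benjamini-Hochberg adjustment over 15150 genes and a threshold of 0.05. The study's methods used DESeq2, which is an alternative here. The 95% intervals are normal intervals from the standard error. Receptor shares were compared by exact permutation in scipy 1.17.1. Alternatives were DESeq2 1.42.0, edgeR with DESeq2's size factors, edgeR with all genes kept, limma 3.58.1 (log2(FPKM + 1), FPKM of 1 or more in 3 libraries), the replicate number as a block, only the libraries of the comparison, a loess correction per library for gene length (span 0.3), leaving out each library, shares from counts, and FPKM with TMM-scaled libraries. Simulated counts for TGF-β1 in control cells over 14881 genes were tested, with 200 genes changed, all of mean CPM above 1. No other gene was changed, and no library was given a shift with gene length. There edgeR recovered 75% of 2-fold and 99% of 4-fold changes with 2.79% false calls. These shares do not cover genes at a lower mean CPM. Depth was 19056916 to 25371321 counts per library. Replicates differed beyond sampling noise (chi-square per gene 3.09 to 241).

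The genes, the pathway and marker lists (fibroblast, endothelial, cardiomyocyte, mural, macrophage, glia and melanocyte, epicardial and mesothelial) and the tests were chosen with earlier results of these data known. All 10 genes were named, with up to 3 genes per direction of largest change among those past the threshold in each pathway list and comparison, the 5 genes nearest to Npr1, Ednrb and Edn1 (TMM log2 CPM with a prior count of 2, each gene centred), and the defining markers. Lyz2, Cd163, Edn2, Edn3, Nppc and the overlapping antisense genes were named where a statement needed them.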

Additional observations from a re-analysis of the deposited data

How the results depend on the processing

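The direction of the Npr1, Edn1 and Ednrb differences between genotypes was the same under all alternatives run for them. The genes were chosen on such differences in the same counts, so this is a description only. Ednrb fell and passed the test for TGF-β1 in both genotypes under each alternative, with the limit from its choice given above for Smad7-KO cells. Single pathway and marker genes were fitted once and have no alternatives of their own. Counts of genes past the threshold moved more, and the cause was not tested. With only the libraries of the comparison, the genes past the threshold went from 3907 to 660 for Smad7-KO against control, from 1962 to 4453 for the same under TGF-β1, from 1268 to 391 for TGF-β1 in control and from 1550 to 3792 for TGF-β1 in Smad7-KO cells, and pathway genes from 21 to 4, 14 to 28, 9 to 2 and 12 to 26. With the length trend removed they were 3496, 2209 and 2446 in the last 3 of these comparisons, and pathway genes 32, 18 and 21. The interaction passed for 3 genes, and for 12 in DESeq2, 8 with the length trend removed, 0 in limma and 0 with the replicate number as a block. DESeq2 gave 19 pathway genes for TGF-β1 in Smad7-KO cells. Of the 7 endothelin and natriuretic peptide genes tested, TGF-β1 in control gave 3 in DESeq2 (Edn1, Ednrb and Npr3), 2 in limma (Edn1 and Ednrb) and 4 with the length trend removed (Edn1, Ednrb, Npr2 and Npr3), and TGF-β1 in Smad7-KO cells gave 2 in DESeq2, 2 with the length trend removed (Ednrb and Npr3 in both) and 4 with only its own libraries (Ece1, Ednra, Ednrb and Npr3). In limma on log2(FPKM + 1), which understates low genes, the log2 fold changes between genotypes without and with TGF-β1 were -2.34 and -2.63 for Edn1, -0.98 and -1.05 for Npr1 and 1.71 and 0.68 for Ednrb, and with the length trend removed Edn1 under TGF-β1 was at -2.85. Shares from counts not divided by length were 2.21% for Npr1 in TGF-β1 control, and in control, TGF-β1 control, Smad7-KO and TGF-β1 Smad7-KO libraries 43.3%, 47.7%, 37.9% and 45.6% for Npr2 and 55.0%, 50.1%, 61.9% and 54.3% for Npr3, so that Npr3 and not Npr2 was then the larger share. Leaving out each library in turn gave 1557 to 7975 genes for Smad7-KO against control (the highest without control replicate 3, the lowest without Smad7-KO replicate 2 or 3), 879 to 4461 under TGF-β1 (the lowest without TGF-β1 control replicate 2, the highest without control replicate 2), 828 to 3486 for TGF-β1 in control (without TGF-β1 control replicate 1, without control replicate 3), 1014 to 2538 in Smad7-KO cells (without Smad7-KO replicate 1, without control replicate 2) and 0 to 6 for the interaction (6 without control replicate 3), with 10 to 33, 7 to 30, 7 to 18 and 6 to 22 pathway genes and 1 to 4 and 1 to 3 of the 7 genes for TGF-β1. Without control replicate 2, Edn1, Ednra and Npr3 joined Ednrb for TGF-β1 in control and Ednra and Npr3 in Smad7-KO cells, and without control replicate 3 Npr3 did in Smad7-KO cells. Counts of all genes also moved by over 1.5 times without control replicate 1 (2002) or Smad7-KO replicate 1 (1667) for Smad7-KO against control, without control replicate 3 (3521), TGF-β1 control replicate 3 (1157) or TGF-β1 Smad7-KO replicates 1, 2 or 3 (966, 970 and 1260) for the same under TGF-β1, without TGF-β1 control replicate 3 (845) for TGF-β1 in control, and without Smad7-KO replicate 3 (1017) or TGF-β1 Smad7-KO replicate 1 (1021) for TGF-β1 in Smad7-KO cells. Npr1 between genotypes under TGF-β1 was then at -4.92 to -4.40. The replicate numbers were not taken to pair the libraries, since 1 of 18 same-number pairs had a correlation over 0.1 (range -0.357 to 0.524), and with the number as a block 3222, 1625, 1107 and 1323 genes passed and the same endothelin and natriuretic peptide genes as without it. Ednra had no value in limma, and Npr1 none for TGF-β1 with only the Smad7-KO libraries. Depth limits Nppa, Nppb and Agtr1a, which were not tested, and Npr1 in Smad7-KO cells and Ednra, whose counts were 3 to 31.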
